A study of Saccharomyces cerevisiae W303 with 3 samples.

Results

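The transcripts of 9 genes of lower glycolysis, out of 6252 genes on the array, were followed in long-running continuous cultures of budding yeast. The 9 genes were taken by name and encode the enzymes that lead from glyceraldehyde 3-phosphate to pyruvate, together with their close paralogs: TDH1, TDH2 and TDH3 for glyceraldehyde-3-phosphate dehydrogenase, PGK1 for phosphoglycerate kinase, GPM1 for phosphoglycerate mutase, ENO1 and ENO2 for enolase, and CDC19 and PYK2 for pyruvate kinase. Each had 1 probe, printed on 2 spots of every array, and all 9 passed the filter on dim probes.

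Lower glycolysis oxidizes triose phosphate, makes ATP at the steps of phosphoglycerate kinase and pyruvate kinase, and ends in pyruvate. All of its steps except the last are reversible, so that the same enzymes carry carbon upward to hexose during gluconeogenesis, whereas pyruvate kinase works only downward. In cells fed with glycerol, carbon enters the pathway at dihydroxyacetone phosphate, beside the first of these enzymes, and leaves in both directions. In budding yeast these genes are among the most strongly transcribed, and Gcr1, Gcr2, Rap1 and Tye7 are known activators of them.

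RNA of cell populations sampled after 240 generations was compared with RNA of the same cultures sampled after 40 generations. Both time points were wild-type W303, a haploid laboratory strain described in the methods as mating type a with alleles of leu2, trp1, can1, ura3, ade2 and his3, grown at 30 °C in chemostats diluted by 0.17 to 0.18 volumes per hour, in synthetic medium with glycerol as the main carbon source and a little glucose. The 3 biological replicates were separate cultures, and each gave 2 arrays with the dyes exchanged, so that 6 arrays were available. The methods describe each inoculum as grown from a single colony, and the study describes the evolved populations as carrying different mutations: Replicate 1 in HOG1 and MSY1, Replicate 2 in HOG1 and URE2, Replicate 3 in MSY1 alone. The mutations were not analysed here, and the culture cannot be told apart from its mutations.

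Each array had 15744 spots, of which 12504 belonged to genes, and 85.3% to 89.4% of genes were above background at 240 generations, against 84.2% to 91.8% at 40 generations. The log2 ratios of the 2 arrays of a culture correlated across genes with r between 0.95 and 0.96. Across genes, which are not independent replicates, Replicates 2 and 3 correlated with r = 0.88, while Replicate 1 correlated with Replicate 2 at r = 0.71 and with Replicate 3 at r = 0.66. The mating type given in the methods was not borne out by the probes: of 6 a-cell genes, STE6 was above background on all 6 arrays at both times, STE2 on 2 arrays at 240 generations and 4 at 40 generations, and MFA1, MFA2, BAR1 and AGA2 did not pass the filter, whereas the α-cell genes MF(ALPHA)1, MF(ALPHA)2, STE3 and SAG1 were above background on all 6 arrays at both times. Of these, MF(ALPHA)2 (2.46 ± 0.75), STE3 (0.78 ± 0.41) and SAG1 (1.42 ± 0.80) had a higher level at 240 generations (mean log2 ratio ± SD, n = 3), and their part in the results below was not tested. The control gene ACT1, for actin, had log2 ratios around a mean of 0.02 ± 0.11 (SD, n = 3) that did not pass the test (adjusted p = 0.91). Its mean was negative under 6 of 20 other processing settings, in which the deposited log2 ratios and the identical series values counted separately.

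TDH2, TDH3 and CDC19 were lower after 240 generations than after 40 generations, by 2.09-, 1.48- and 1.65-fold, and no member was higher by the test. The test was limma's moderated test of the 3 cultures' log2 ratios of 240 over 40 generations against 0, with Benjamini-Hochberg adjustment over all 5504 genes above background and a threshold of 0.05. The 3 lower members of 9 stand beside 13.7% of all genes tested that were called lower, and the 0 higher members beside 14.0% called higher, together 27.7%. GPM1, the only member with a positive mean, had an unadjusted p of 0.072, and over all genes tested 2392 had an unadjusted p under 0.05. The median log2 ratio over the 9 members was -0.55, and that over all genes tested was -0.01. The RNA came from whole populations, so fewer cells with a transcript and less of it per cell cannot be told apart.

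The TDH genes encode 3 isozymes of glyceraldehyde-3-phosphate dehydrogenase, the NAD-dependent enzyme that opens lower glycolysis. TDH2 had normalized levels (log2 intensity) of 8.87, 8.42 and 8.61 at 240 generations in Replicates 1, 2 and 3, against 9.75, 9.48 and 9.87 at 40 generations. All 3 cultures were lower at 240 generations and the groups did not overlap. The log2 ratios were -0.88, -1.06 and -1.25, with a mean of -1.07 ± 0.19 (SD, n = 3, adjusted p = 0.0053) and a 95% interval of -1.37 to -0.76. TDH2 was the member with the lowest mean, and 2.87% of all genes tested had a lower one. It was also the dimmest of the 9 probes, brighter than 34.1% of genes, with spot signals over local background of 57 to 680 at 240 generations, against 169 to 1986 at 40 generations. Its 2 spots on an array differed in 40-generation signal by 1.53- to 8.87-fold. Their log2 ratios differed by up to 0.38 on a single array, the most of the 9 members, and averaged -1.11 and -1.02 over the cultures. The size of the TDH2 mean depended on the processing. It was -1.32 with local background plainly subtracted and -1.33 in the deposited ratios.

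TDH3 encodes the main isozyme in growing cells. Its levels were 12.17, 12.37 and 12.81 at 240 generations, against 12.85, 12.95 and 13.23 at 40 generations, and the groups did not overlap, with the highest culture at 240 generations just below the lowest at 40. The log2 ratios were -0.68, -0.58 and -0.43, with a mean of -0.56 ± 0.13 (SD, n = 3, adjusted p = 0.020). With 1 culture left out, TDH3 was at -0.51 without Replicate 1 (adjusted p = 0.0079), -0.55 without Replicate 2 (adjusted p = 0.14) and -0.63 without Replicate 3 (adjusted p = 0.062), so that the call was lost without Replicate 2 or 3 at a like mean.

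TDH1 encodes the isozyme known to be made mainly in slowly growing and stationary cells. Its levels were 12.32, 13.34 and 12.04 at 240 generations, against 13.10, 13.35 and 12.22 at 40 generations, so that the cultures differed more from each other than the time points did, and the groups overlapped. The log2 ratios of Replicates 1, 2 and 3 were -0.78, -0.01 and -0.18, and the mean of -0.32 ± 0.40 (SD, n = 3) did not pass the test (adjusted p = 0.21). Its 2 spots differed in 40-generation signal by 1.01- to 3.52-fold, and their mean log2 ratios were -0.29 and -0.35.

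**Figure D1:**
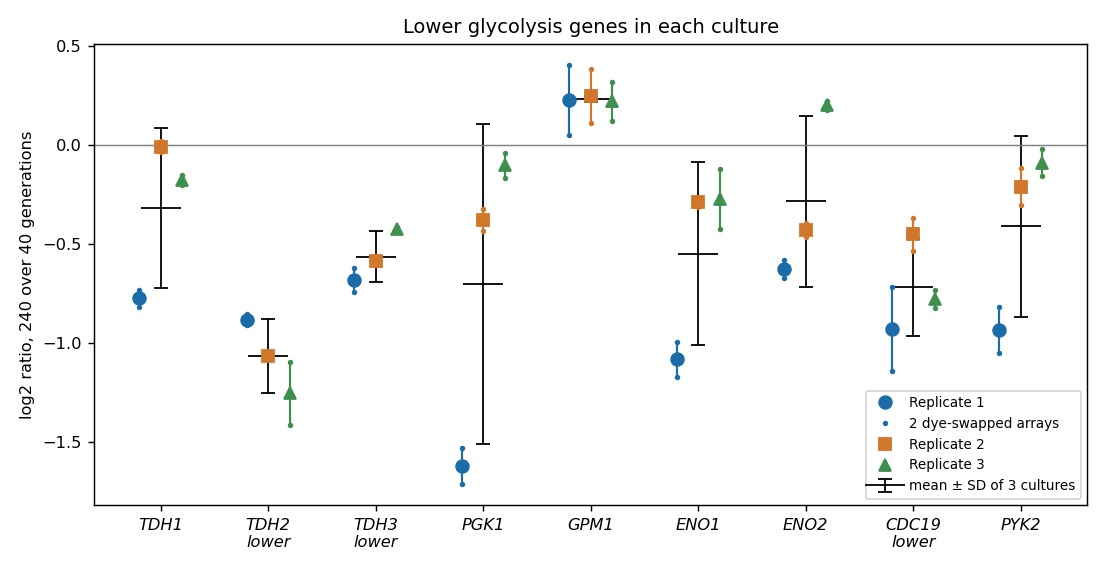
Log2 ratio of 240 over 40 generations (vertical axis) of the 9 lower glycolysis genes in each culture; large symbols are cultures, small points their 2 dye-swapped arrays, black bars the mean ± SD of 3 cultures, and "lower" under a name marks an adjusted p under 0.05. TDH2, TDH3, PGK1, ENO1, CDC19 and PYK2 lay below 0 on all 6 arrays, GPM1 lay above 0 on all arrays, and PGK1 ranged from -1.62 in Replicate 1 to -0.10 in Replicate 3.

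PGK1 encodes phosphoglycerate kinase, which makes the first ATP of lower glycolysis. Its levels were 13.47, 14.37 and 14.38 at 240 generations, against 15.09, 14.75 and 14.49 at 40 generations. The groups did not overlap, but the difference lay mostly in Replicate 1, which was the lowest culture at 240 generations and the highest at 40 generations. The log2 ratios were -1.62, -0.38 and -0.10, and the mean of -0.70 ± 0.81 (SD, n = 3) did not pass the test (adjusted p = 0.13), with a 95% interval of -1.43 to 0.03. The dye-swapped arrays of a culture differed by at most 0.18, against a range of 1.52 over the cultures, and without Replicate 1 the mean was -0.24.

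GPM1 encodes phosphoglycerate mutase and was the single member with a positive mean. Its levels were 15.04, 14.95 and 14.93 at 240 generations, against 14.81, 14.71 and 14.71 at 40 generations, so that the groups did not overlap and all 3 cultures were higher at 240 generations. The log2 ratios of 0.22, 0.25 and 0.22 averaged 0.23 ± 0.01 (SD, n = 3) and did not pass the test (adjusted p = 0.15). The close values of the cultures hid a difference between dyes: with 240 generations in Cy5 the ratios were 0.40, 0.38 and 0.32, and with 240 generations in Cy3 they were 0.05, 0.11 and 0.12. The sign depended on the normalization, since the mean was -0.04 (adjusted p = 0.77) when the arrays were instead shifted to a median of 0 (median centring), without loess, which fits a curve to the ratio against intensity.

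Enolase is encoded by ENO1, transcribed on both fermentable and non-fermentable carbon sources, and ENO2, known for its induction by glucose. ENO1 had levels of 14.32, 14.77 and 14.64 at 240 generations, against 15.40, 15.06 and 14.92 at 40 generations, without overlap. Its log2 ratios were -1.08, -0.29 and -0.27, lowest in Replicate 1, and the mean of -0.55 ± 0.46 (SD, n = 3) missed the threshold (adjusted p = 0.080). With median centring the mean of ENO1 was -0.82 and passed (adjusted p = 0.024), and without Replicate 1 it was -0.28. ENO2 had levels of 12.69, 12.76 and 13.46 at 240 generations, against 13.31, 13.19 and 13.26 at 40 generations, and the groups overlapped because Replicate 3 was higher at 240 generations. Its log2 ratios were -0.63, -0.43 and 0.20, with a mean of -0.29 ± 0.43 (SD, n = 3, adjusted p = 0.27).

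Pyruvate kinase, the irreversible last step, is encoded by CDC19, the main isozyme, which fructose 1,6-bisphosphate activates, and by PYK2, which is repressed by glucose and insensitive to that activator. CDC19 had levels of 13.49, 13.82 and 13.26 at 240 generations, against 14.42, 14.27 and 14.04 at 40 generations, and the groups did not overlap. The log2 ratios were -0.93, -0.45 and -0.78, all below 0, with a mean of -0.72 ± 0.24 (SD, n = 3, adjusted p = 0.017). With 1 culture left out, CDC19 was at -0.61 without Replicate 1 (adjusted p = 0.0054), and at -0.85 without Replicate 2 and -0.69 without Replicate 3 (adjusted p = 0.062 each), where the call was lost. PYK2 had levels of 10.87, 11.30 and 11.97 at 240 generations, against 11.80, 11.51 and 12.06 at 40 generations, with overlapping groups. Its log2 ratio was -0.93 in Replicate 1, close to that of CDC19, but -0.21 and -0.09 in the other cultures, and the mean of -0.41 ± 0.46 (SD, n = 3) did not pass (adjusted p = 0.15).

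**Figure D2:**
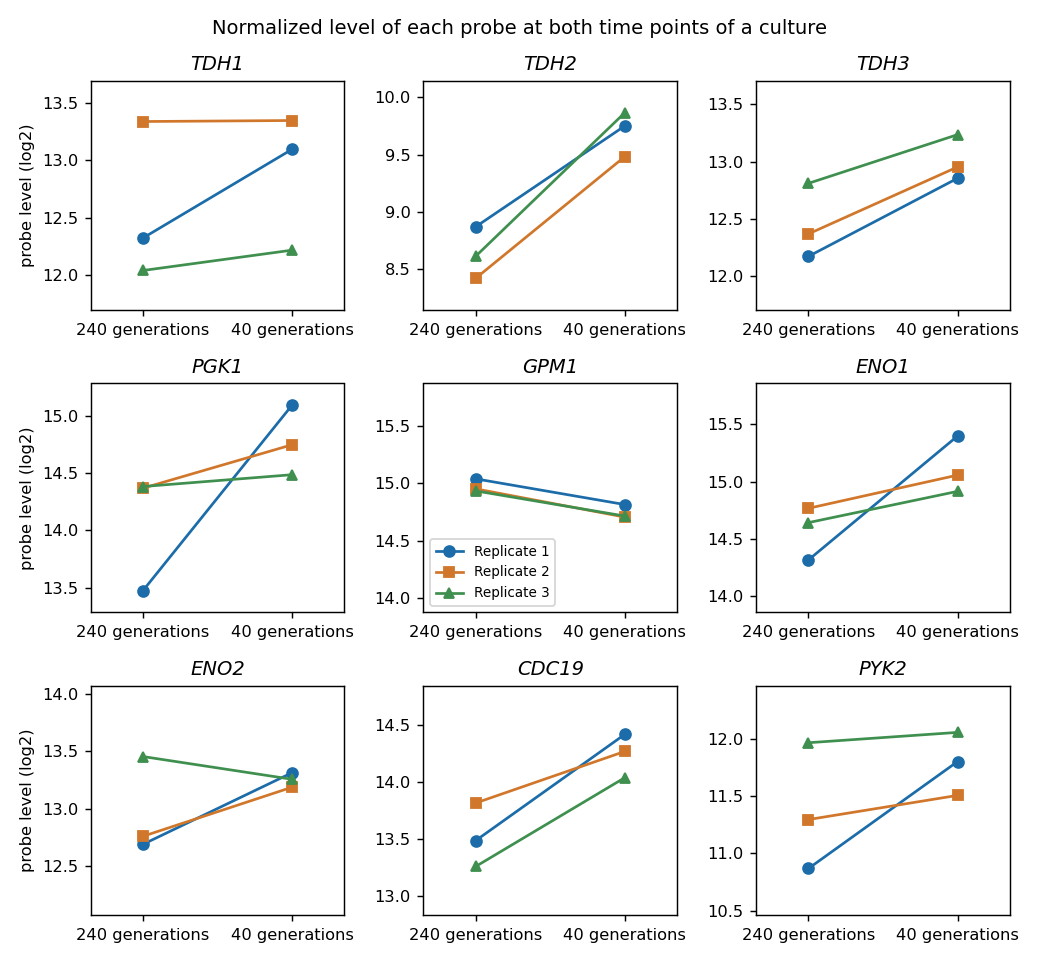
Normalized level (log2 intensity, vertical axis) of each probe at 240 generations (left) and at 40 generations (right) of a culture; lines join the time points of 1 culture and every panel spans the same length of scale. Levels of different probes cannot be set against each other. The lines of all members but ENO2 run the same way in the 3 cultures. From left to right, the line of Replicate 1 rises the most for all members but TDH2 and GPM1, so that its level was lower at 240 generations.

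The levels of 5 members did not overlap and were lower at 240 generations (TDH2, TDH3, PGK1, ENO1 and CDC19), 1 did not overlap and was higher (GPM1), and 3 overlapped; over all genes tested, 17.0% did not overlap and were lower and 15.4% did not overlap and were higher. The log2 ratio was below 0 in all 3 cultures for 7 of 9 members, against 32.8% of all genes tested, and above 0 in all 3 for 1, GPM1, against 31.0%. Ordered by the mean, TDH2 was followed by CDC19, PGK1, TDH3, ENO1, PYK2, TDH1, ENO2 and GPM1, and the ranges over cultures of every pair of neighbours in this order overlapped, except those of ENO2 and GPM1.

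Replicate 1 had the lowest log2 ratio of the 3 cultures for 7 of 9 members, all but TDH2 and GPM1, against 42.0% of all genes tested. The median over the members was -0.88 in Replicate 1, -0.38 in Replicate 2 and -0.18 in Replicate 3. For 8 of 9 members, all but GPM1, the range over cultures was larger than the largest difference between dye-swapped arrays. The margin was small for TDH2 (0.37 against 0.32) and CDC19 (0.48 against 0.42). The share of all genes for which this held was not computed. In Replicate 1 the deviation of a gene from its mean over the other cultures also went with gene length (Spearman's rho = -0.37 over 5347 genes, as a description). For the same measure, rho was 0.09 in Replicate 2 and 0.43 in Replicate 3. The members were between 744 and 1521 nt long, around the median of 1269 nt. The part of gene length in the members' values was not tested.

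Paralogs were compared within each culture in 5 pairs by exact two-sided sign-flip permutation tests, which cannot go below p = 0.25 with 3 cultures, so that no difference could pass. The log2 ratio of TDH1 minus that of TDH2 was 0.11, 1.05 and 1.08 in Replicates 1, 2 and 3, with a mean of 0.75 ± 0.55 (SD, n = 3, exact p = 0.25, adjusted 0.5), positive in 3 of 3 cultures and on all 6 arrays. TDH2 minus TDH3 was -0.20, -0.48 and -0.83, with a mean of -0.50 ± 0.32 (SD, n = 3, exact p = 0.25, adjusted 0.5), negative in 3 of 3 cultures and on 6 of 6 arrays. The other pairs changed sign between cultures. TDH1 minus TDH3 averaged 0.24 ± 0.33, ENO1 minus ENO2 averaged -0.26 ± 0.35, and PYK2 minus CDC19 averaged 0.31 ± 0.35 (SD, n = 3, exact p = 0.5 each, adjusted 0.5). Paralog transcripts can bind to each other's probes where the sequences are alike, and this was not tested, because no probe sequences were used here.

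**Figure D3:**
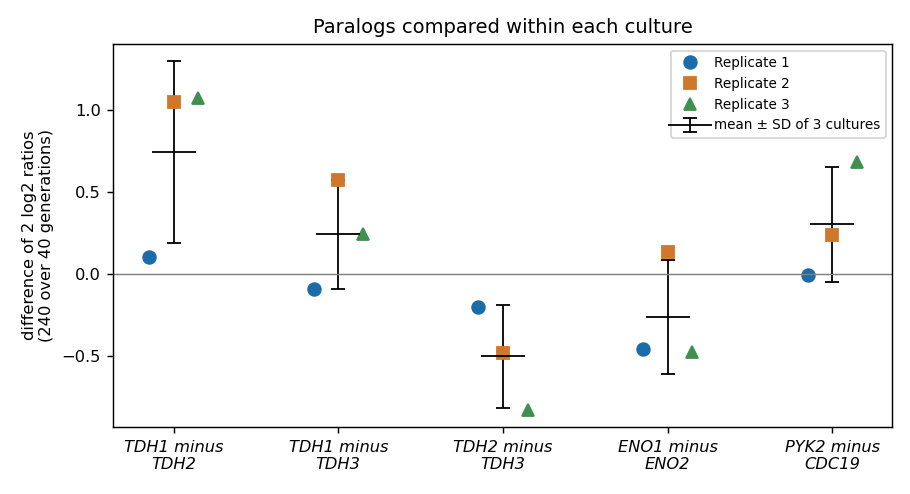
Difference between the log2 ratios of 2 paralogs (vertical axis) in each culture, for 5 pairs; symbols are cultures and black bars the mean ± SD of 3 cultures. TDH1 minus TDH2 lay above 0 and TDH2 minus TDH3 below 0 in all 3 cultures, while the 3 other pairs had cultures on both sides of 0.

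The spots of all members but TDH2 were bright, and none was saturated. All 9 probes were above background on all 6 arrays at both times, and none of their spots held saturated pixels or was flagged. GPM1 and ENO1 were brighter than 99.8% of genes tested, PGK1 than 99.3%, CDC19 than 98.1%, ENO2 than 94.1%, TDH1 than 91.2%, TDH3 than 91.1% and PYK2 than 77.9%. Fitting the curve with the glycolysis genes at weight 0 left 3 members called lower, whereas median centring lowered the mean of each of the 9 members and called 4 of them lower, with the median of all genes tested at -0.07.

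**Figure D4:**
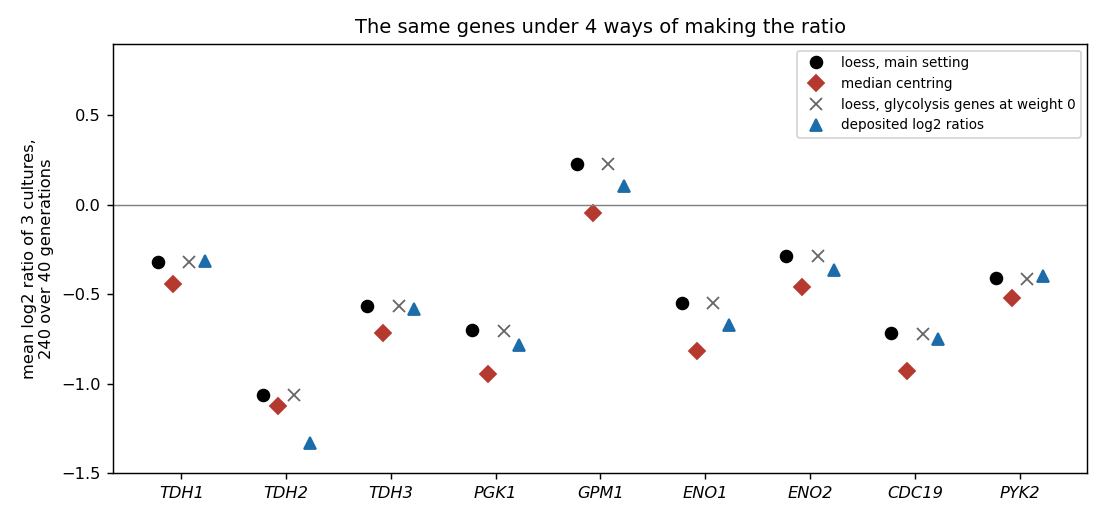
Mean log2 ratio of 3 cultures (vertical axis) of each member under 4 ways of making the ratio: loess, median centring of each array, loess with the glycolysis genes at weight 0, and the log2 ratios deposited by the authors. All members but GPM1 lay below 0 in each of the 4, and GPM1 lay at 0.23 with loess and at -0.04 with median centring.

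The neighbouring steps of the pathway were taken from lists of genes. The counts of every list stand beside 14.0% of all genes tested that were called higher and 13.7% called lower. In upper glycolysis, which prepares hexose and splits it to triose phosphate, 2 of 9 genes were higher, 0 were lower, also at an unadjusted p under 0.05, and 7 did not pass, with a median log2 ratio of -0.02. The higher genes were the hexokinase genes HXK1, at 0.58 ± 0.20 (adjusted p = 0.024), and HXK2, at 0.54 ± 0.28 (adjusted p = 0.040; SD, n = 3 each). The medians of this list were -0.08, 0.12 and 0.09 in Replicates 1, 2 and 3. Neither call held with median centring, without Replicate 2 or without Replicate 3, and that of HXK2 was also lost with the deposited ratios (adjusted p = 0.082).

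At the entry of glycerol, 3 of 6 genes were higher, against 14.0% of all genes tested, 2 were lower, against 13.7%, and 1 did not pass. The higher genes were GUT1, for glycerol kinase, at 0.55 ± 0.06 (adjusted p = 0.019), GUT2, for the mitochondrial glycerol-3-phosphate dehydrogenase, at 0.81 ± 0.36 (adjusted p = 0.020), and GCY1, for a glycerol dehydrogenase, at 0.59 ± 0.15 (adjusted p = 0.020; SD, n = 3 each). The lower genes were STL1, for the glycerol-proton symporter, at -1.79 ± 0.47 (adjusted p = 0.0048), and DAK1, for dihydroxyacetone kinase, at -0.66 ± 0.05 (adjusted p = 0.012; SD, n = 3 each). The log2 ratio was 0.49, 0.57 and 0.60 for GUT1, and -1.58, -2.33 and -1.47 for STL1, in Replicates 1, 2 and 3. The size of STL1 depended on the background correction: its mean was -2.58 with local background plainly subtracted and -2.54 in the deposited ratios. Of these 5 calls, that of STL1 held without each replicate, and the other 4 were lost without Replicate 2 and without Replicate 3 (GUT1 at 0.54 and 0.53, GUT2 at 0.84 and 0.61, GCY1 at 0.58 and 0.66, DAK1 at -0.65 and -0.65), that of GCY1 also with median centring (adjusted p = 0.067).

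Of 5 gluconeogenic and anaplerotic genes, PCK1, for phosphoenolpyruvate carboxykinase, which feeds phosphoenolpyruvate back into the pathway, was lower, with log2 ratios of -1.60, -1.29 and -1.29 and a mean of -1.39 ± 0.18 (SD, n = 3, adjusted p = 0.0029), and the other 4 did not pass. Of 8 genes of pyruvate use, PDC6, for a minor pyruvate decarboxylase, was lower at -0.60 ± 0.10 (SD, n = 3, adjusted p = 0.017), a call lost without Replicate 2 (-0.59) and without Replicate 3 (-0.66), and 7 did not pass. Among 5 distant paralogs of the mutase and enolase genes, of which 4 were tested, GPM3, whose product has little or no known mutase activity, was higher at 1.13 ± 0.05 (SD, n = 3, adjusted p = 0.0036), and 3 did not pass. None of 6 regulators passed, and 2, REB1 and ABF1, had an unadjusted p under 0.05, as did 2392 of all 5504 genes tested. Both encode general DNA-binding factors and had the largest means of the list. These were 0.38 ± 0.22 for REB1 (adjusted p = 0.077) and 0.36 ± 0.10 for ABF1 (adjusted p = 0.058, SD and n = 3 for each). Without Replicate 1 each of them passed, with adjusted p of 0.0067 for REB1 and 0.033 for ABF1. In that setting 1231 of all genes were called higher and 1261 lower. Neither passed without Replicate 2 or without Replicate 3. The adjusted p was 0.38 and 0.30 for REB1, and 0.22 and 0.28 for ABF1. Of the 20 alternatives, REB1 passed in 2 and ABF1 in 3.

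**Figure D5:**
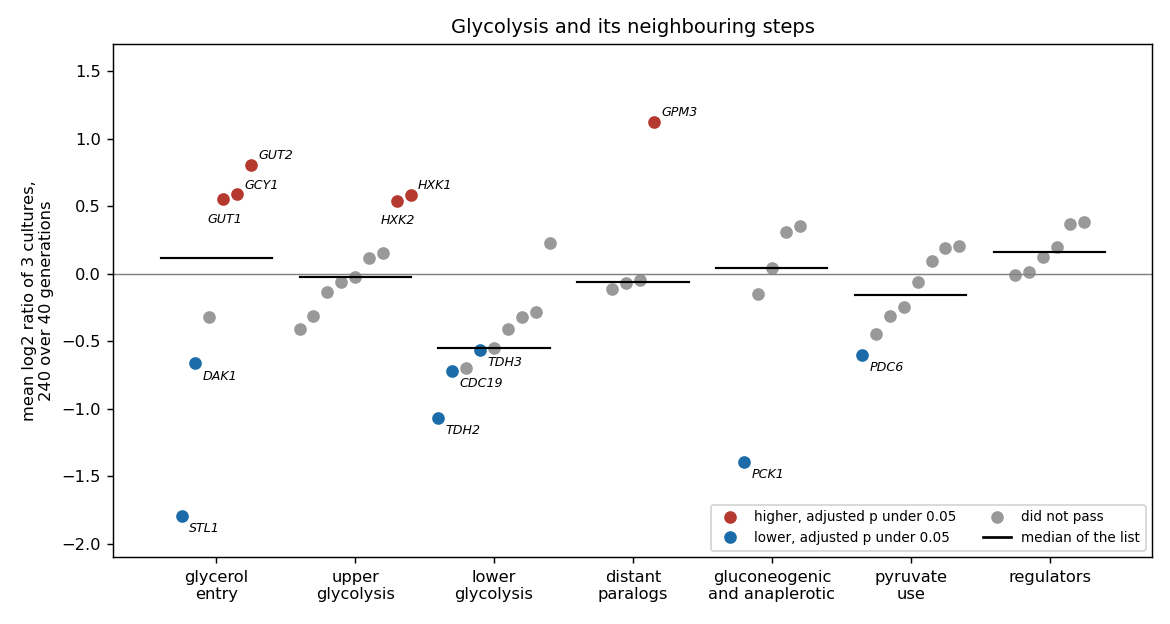
Mean log2 ratio of 240 over 40 generations in 3 cultures (vertical axis) of each tested gene of glycolysis and its neighbouring steps; points are genes, red higher and blue lower at an adjusted p under 0.05, grey did not pass, and black lines are the medians of the lists. The median of lower glycolysis lay at -0.55 and those of the other lists between -0.16 and 0.16.

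The 5 genes whose log2 ratios were nearest to those of TDH2 on the 6 arrays, by root mean square difference, were TPS3 (0.14), RPL14A (0.14), PNC1 (0.15), SSB1 (0.16) and POM33 (0.17). Their mean log2 ratios lay between -1.10 for POM33 and -1.02 for SSB1, against -1.07 for TDH2.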

How the data were processed

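RNA of 3 cultures of W303 was compared at 240 and 40 generations on 2-colour Agilent arrays, 2 per culture with exchanged dyes. The authors scanned the arrays, and the deposited values are pixel intensity per channel for spot and surroundings, without normalization. A flag and the percent of pixels that were saturated were deposited per spot. The authors also deposited log2 ratios per culture. This table and the series values differed by at most 8.88e-16. The authors normalized and averaged them in Acuity, by a method not given in the sources used here. Their column names put 40 generations first, while the methods give the ratio as 240 relative to 40 generations. Values of exactly 0 (277, 332 and 24 in Replicates 1, 2 and 3) were treated as missing. The deposited ratios correlated with 240 over 40 generations from the scanner intensities with r = 0.97, 0.98 and 0.98, and were used only as an alternative, with that direction; their column medians were 0.01, -0.00 and 0.01.

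In R 4.3.3 with limma 3.58.1, median intensities were background-corrected (normexp, offset 50), normalized within each array by loess with control spots at weight 0, averaged over the spots of a probe and over the dye-swapped arrays, and tested against 0 with lmFit and eBayes. Genes were tested if their mean signal exceeded background by 2 SD of the background on at least 4 of 6 arrays at 240 or at 40 generations. Levels of single channels were additionally quantile-normalized over the mean intensity of the arrays, and such levels are open to dye bias within an array. Precision is limited by the 3 cultures. The script was tested on simulated data. Both time points of a culture share its arrays, so the ratio is paired by culture. The deviations of the 240- and 40-generation levels from their means correlated with r = 0.09, 0.76 and 0.71. The dye of each time point came from the array names. Of the 6252 genes, 5753 matched a RefSeq entry and 499 did not; 4 further genes were not analysed here.

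The members and the lists of other genes were chosen with earlier results of these data known. All members were named, with every gene of a list that passed (or, where none did, the pair with the largest absolute means), ACT1, and the 5 genes nearest to the member with the largest absolute mean. The 20 alternatives covered background correction, normalization, spot and dim-probe filters, dye, the fit, the block, each replicate left out, and the deposited log2 ratios. The deposited ratios were counted again as the series values, which are the same values.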

Additional observations from a re-analysis of the deposited data

How the results depend on the processing

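Precision was limited by 3 cultures. Without each replicate in turn, 123 to 1231 genes were called higher (769 with all) and 167 to 1261 lower (754 with all), and of the members 1 to 3 were lower. Without Replicate 2 and without Replicate 3 the member that passed was TDH2, while TDH3 (-0.55 and -0.63) and CDC19 (-0.85 and -0.69) kept means near those of all 3 cultures. Other pathway genes called higher numbered 1 to 9 (6 with all) and lower 2 to 7 (4 with all). Comparing the time points without the pairing by culture (no replicate block), 188 genes were higher and 244 lower, 1 member was lower (TDH2; adjusted p = 0.14 for TDH3 and 0.064 for CDC19), and 1 other pathway gene was higher and 2 were lower. Median centring called 650 genes higher and 997 lower, so that 39.5% of calls were higher, against 50.5% with loess, and 3 other pathway genes were higher and 7 lower; GPM1 was -0.044. 4 members were lower with median centring and also in the fit of 6 arrays with a dye term, where PGK1 passed (adjusted p = 0.048), and on the arrays with 240 generations in Cy5, where ENO1 passed (adjusted p = 0.048). ACT1 was negative at -0.0086 with mean pixels, -0.18 with median centring, -0.10 with 240 generations in Cy3 and -0.054 with the deposited ratios and the series values, and lay between -0.032 (without Replicate 1) and 0.078 when each replicate was left out. TDH2 passed under all 20 alternatives, between -1.33 and -0.97, with adjusted p from 2.91e-04 to 0.043. The deposited ratios and the series values are the same values and were counted separately among the 20. The causes were not tested.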
